A study of Mus musculus with 19 samples.

Results

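Thymocytes of OT-II and OT-I mice, which carry T cell receptor (TCR) transgenes of opposite MHC class, were compared within 1 experiment (ZRS08) of a larger CITE-seq series. Members were the cells of the 2 OT-I mice (replicates 1 and 2) and the 2 OT-II mice (replicates 1 and 2) with at most 15% of UMIs from mitochondrial genes and at least 200 genes. There were 3754 and 3453 such cells in the OT-I mice and 5825 and 3178 in the OT-II mice, that is 16210 of 79569 cells in the series (20.4%) and 4 of its 19 samples. CITE-seq counts, for each single cell, RNA molecules and the DNA tags of antibodies bound to the cell surface, both as unique molecular identifiers (UMIs). Both strains carry rearranged TCR α and β transgenes on a C57BL/6 background, which encode a Vα2 Vβ5 receptor for an ovalbumin peptide, presented by MHC class I to OT-I and by MHC class II to OT-II cells. The strains are Rag-sufficient, so that receptors rearranged from the endogenous genes can occur beside the transgenic one. All mice were females aged 4 to 8 weeks, their thymi were not sorted. The 2 unsorted wild-type C57BL/6 mice of the same experiment (B6 (WT) replicates 4 and 5, 22167 cells on 2 lanes each) served as reference values. Lanes were numbered tubes, with OT-I and OT-II replicate 1 in tubes 3 and 4 next to wild-type replicate 4, and replicate 2 in tubes 10 and 11 next to wild-type replicate 5. Replicate 1 was the deeper of each pair, with median RNA UMIs per cell of 7062 and 3114 for the OT-I pair and of 4248 and 2028 for the OT-II pair. Because mice of a replicate number ran in neighbouring tubes, the number entered each fit as a block.

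Double-positive (DP) thymocytes, which bear both CD4 and CD8, rearrange the TCR α gene with the Rag recombinase and are then tested on self peptides bound to MHC. A receptor that binds MHC class II leads as a rule to the CD4 lineage under the transcription factor ThPOK (encoded by Zbtb7b), and one that binds MHC class I to the CD8 lineage under RUNX3. Cells that receive a signal turn on early response genes such as Egr1 and Nr4a1 and the surface proteins CD69 and CD5, turn off Rag1 and Rag2, and later express the egress and homing genes Klf2, S1pr1 and Ccr7.

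RNA of the Vβ5 segments differed between the genotypes. Trbv12-1 (ENSMUSG00000095574) was counted at 62.3 and 217 CPM (UMIs scaled to a total of 1000000 RNA UMIs per mouse) in OT-I, at 0.363 and 0.410 CPM in OT-II and at 3.35 and 9.53 CPM in wild-type thymocytes (log2 fold change -8.07 ± 0.20 (SE), adjusted p = 1.59e-17). Trbv12-2 (ENSMUSG00000094525) was counted at 0.280 and 0.216 CPM in OT-I, at 28.5 and 29.1 CPM in OT-II and at 4.90 and 5.65 CPM in wild-type thymocytes (log2 fold change 6.66 ± 0.22 (SE), adjusted p = 2.99e-15). Each genotype thus read on 1 of the 2 segments, 268-fold apart on the first and 101-fold apart on the second. Both mice of a label read on the same segment, at different levels in OT-I and at close levels in OT-II. No segment was assigned to a strain beforehand, so that the segments alone do not check the labels. The share of CD4-CD8a+ cells, the lineage of MHC class I receptors, was 28.2% and 27.9% of gated cells in the mice labelled OT-I and 0.365% and 0.591% in those labelled OT-II. Log2 fold changes are OT-II over OT-I throughout, so that negative values are higher in OT-I, and adjusted p-values are those of edgeR's quasi-likelihood test with the replicate block and Benjamini-Hochberg adjustment over all features tested. The coding exons of the 2 segments lie on the + strand of chromosome 6 in GRCm38, Trbv12-1 at chr6:41113775-41114067 and Trbv12-2 at chr6:41119072-41119364. They are shown because reads on them differ by genotype. Capitals mark the 32 of 293 bases at which they differ (89.1% identity):
Trbv12-1: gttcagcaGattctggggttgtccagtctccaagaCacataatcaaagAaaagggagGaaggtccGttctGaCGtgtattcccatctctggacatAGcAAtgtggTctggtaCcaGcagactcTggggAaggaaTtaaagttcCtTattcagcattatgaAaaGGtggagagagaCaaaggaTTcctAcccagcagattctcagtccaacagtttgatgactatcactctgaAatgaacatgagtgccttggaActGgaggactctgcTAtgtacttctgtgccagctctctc
Trbv12-2: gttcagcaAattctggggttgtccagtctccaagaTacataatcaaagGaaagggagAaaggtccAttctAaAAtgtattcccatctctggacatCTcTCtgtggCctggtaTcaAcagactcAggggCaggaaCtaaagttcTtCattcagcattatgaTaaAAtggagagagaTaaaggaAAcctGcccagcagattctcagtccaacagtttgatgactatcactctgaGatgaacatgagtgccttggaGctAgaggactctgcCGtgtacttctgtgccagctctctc
A read that covers few of the marked bases can be assigned to either segment, and the assay reads from the 3′ end of the RNA, so these levels may be shifted by shared reads. Of the 11 Vα2 and Vβ5 segments listed for the transgenes, 6 were tested, and only these 2 were called.

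RNA counted on the constant region genes, which does not separate transgenic from endogenous receptors, also differed. Whether transcripts of both transgenes are counted on these genes was not tested. Trac, the TCR α constant gene, stood at 327 and 279.5 CPM in OT-I, 8606 and 6234 CPM in OT-II and 489 and 488 CPM in wild-type thymocytes (log2 fold change 4.51 ± 0.16 (SE), adjusted p = 1.03e-14). OT-II thymocytes were 22.8-fold above OT-I thymocytes, which lay below the wild-type mice. Trbc2, a β constant gene, went the other way in the fit, with 9334 and 5317 CPM in OT-I and 5988 and 3671 CPM in OT-II mice (log2 fold change -0.67, adjusted p = 0.00151), although the mice of the 2 genotypes overlapped. Over the whole thymus the antibody to Vβ5 was at 165 and 131 per 10000 antibody UMIs in OT-I and 115 and 107 in OT-II mice, without overlap, but did not pass (adjusted p = 0.592), against 9.23 and 9.01 in wild-type mice.

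Rnf43 encodes a ubiquitin ligase that removes Wnt receptors from the cell surface, and Mme encodes the surface peptidase CD10. Both were among the named genes, in opposite directions, in the CD69- DP, CD69+ DP and CD4+CD8a- gates. Rnf43 stood at 1.90 and 4.31 CPM in OT-I, 215 and 148 CPM in OT-II and 2.13 and 6.02 CPM in wild-type mice (log2 fold change 5.98 ± 0.21 (SE), adjusted p = 1.06e-14). In CD69- DP cells it was at 0.707 and 2.53 CPM in OT-I and 278 and 179 CPM in OT-II mice, and in CD4+CD8a- cells at 2.54 and 6.24 CPM in OT-I and 195 and 165 CPM in OT-II. Over the whole thymus OT-I mice stayed near the wild-type level, and OT-II cells stood apart from OT-I cells in both gates as well. Mme was counted at 24.5 and 19.991 CPM in OT-I, 0 and 0.102 CPM in OT-II and 0 and 0.0404 CPM in wild-type mice. The OT-I mice held 1066 Mme UMIs and the OT-II mice 1, a ratio of depth-scaled levels of 1056 with a 95% counting interval of 189 to 41750. Wild-type thymocytes lacked Mme as OT-II thymocytes did.

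Genes beside both were examined on GRCm38. Within 600 kb of the middle of Rnf43 on chromosome 11, 19 other genes were tested, of which 5 were higher in OT-II, 4 were higher in OT-I and the others were not called. Over the whole thymus 25.8% of all genes tested were called, so that these counts are a description of the window only. Sept4, a septin gene 119 kb away, stood at 2.74 and 1.80 CPM in OT-I and 37.6 and 24.9 CPM in OT-II mice (log2 fold change 3.68 ± 0.15). Bzrap1 was at 5.67 and 6.11 CPM in OT-I and 19.2 and 21.6 CPM in OT-II (log2 fold change 1.69 ± 0.14). Ppm1e, farther from Rnf43 on the same side as Sept4, was at 9.31 and 10.1 CPM in OT-I and 3.32 and 3.18 CPM in OT-II mice and so lower in OT-II (log2 fold change -1.64 ± 0.19). Around Mme on chromosome 3 the only other gene tested in the same window was Plch1, a phospholipase C gene, at 3.92 and 4.75 CPM in OT-I, 0.167 and 0.410 CPM in OT-II and 0.289 and 0.283 CPM in wild-type mice (log2 fold change -4.23 ± 0.43, adjusted p = 1.26e-07). The genes called beside Rnf43 moved in both directions, split by distance. The 5 higher in OT-II (Sept4, Mtmr4, Hsf5, Mir142hg and Bzrap1) lay at most 119 kb away, where Supt4a was not called. Hsf5 was near the floor, at 0.670 and 0.922 CPM in OT-II mice. The 4 higher in OT-I (Rad51c, Ppm1e, Cuedc1 and Mrps23) lay at 308 kb or more. The gene called beside Mme moved in the direction of Mme. No source used here states where the transgenes are inserted, and whether these genes lie near an insertion was not tested.

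**Figure D1:**
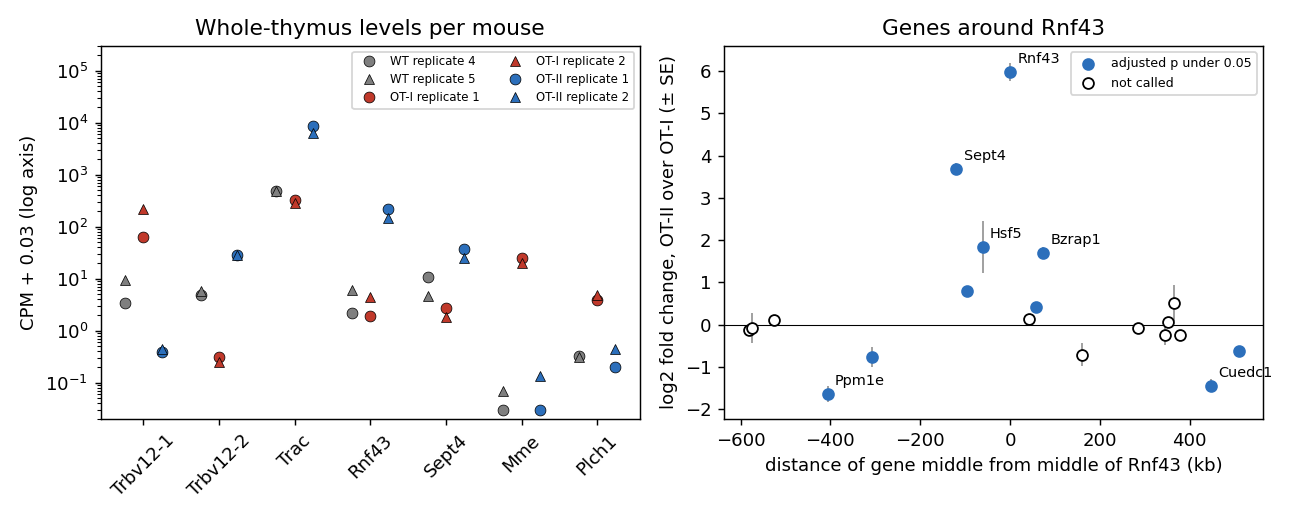
Left, whole-thymus CPM (plus 0.03, log axis) of 7 genes in each wild-type, OT-I and OT-II mouse, 1 point per mouse. Right, log2 fold change of OT-II over OT-I (bars, SE) against the distance of a gene's middle from that of Rnf43 in kb, filled where the adjusted p is under 0.05. Trac, Rnf43 and Sept4 are high in both OT-II mice, and Trbv12-1, Mme and Plch1 in both OT-I mice.

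Surface proteins placed the cells in gates, set on log2 antibody UMIs per 10000 at 1 threshold per marker for all mice. CD4-CD8a+ cells that bore TCRβ made up 28.2% and 27.9% of gated cells in OT-I, 0.365% and 0.591% in OT-II and 2.23% and 3.07% in wild-type mice. In OT-II mice these were 19 and 16 cells, too few for a fit. CD4+CD8a- cells that bore TCRβ made up 13.6% and 13.5% in OT-I, 14.5% and 18.8% in OT-II and 8.89% and 10.1% in wild-type mice. A CD4+CD8a- compartment was thus present in OT-I mice at a share whose mean was 3.04 percentage points below that of OT-II mice (pooled SD 2.15 points), a sign that turned with thresholds raised by 0.5 log2 (-0.43 points, OT-II minus OT-I).

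DP cells without CD69 made up 10.4% and 5.85% in OT-I, 41.3% and 35.7% in OT-II and 49.6% and 45.4% in wild-type mice. The genotype means differed by 30.4 percentage points (pooled SD 3.58), and by 10.96 points with a threshold per mouse. DP cells with CD69 differed by less than their spread, with 27.3% and 29.1% in OT-I and 29.1% and 25.6% in OT-II mice, and the direction turned with the thresholds (a difference of -0.890 points, but 23.4 points with a threshold per mouse). CD4-CD8a- (DN) cells made up 18.1% and 20.3% in OT-I, 11.6% and 15.5% in OT-II and 2.22% and 3.79% in wild-type mice. With 2 mice against 2, no permutation of mice can reach the usual threshold, so the shares are given without a test. CD69 had no gap in DP cells: 24.95% to 41.7% of a mouse's DP cells lay within 0.5 log2 of its threshold.

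**Figure D2:**
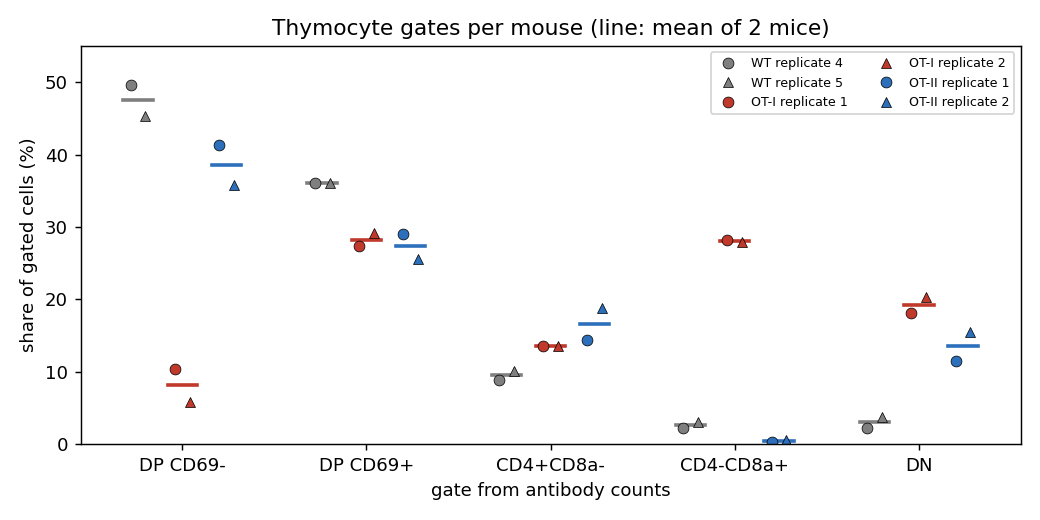
Share of gated cells (%) in each of 5 antibody gates for each mouse, 1 point per mouse, with a line at the mean of the 2 mice of a group. OT-I mice stand at 28.2% and 27.9% in the CD4-CD8a+ gate, where OT-II mice stand under 1%. In CD69- DP cells, at the thresholds common to all mice, OT-II mice stand at 41.3% and 35.7% and wild-type mice at 49.6% and 45.4%.

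Vβ5 antibody lay in opposite directions in different gates. In CD4+CD8a- cells it was at 195 and 149 per 10000 antibody UMIs in OT-I and 467 and 380.5 in OT-II mice. In CD69- DP cells it was at 67.8 and 53.7 in OT-I and 20.8 and 13.8 in OT-II mice, and in CD69+ DP cells at 134 and 101 in OT-I and 66.6 and 62.2 in OT-II. Both OT-II mice were above both OT-I mice in the CD4+CD8a- gate and below them in the DP gates. Wild-type mice lay between 5.67 and 28.0 over all gates. The CD4+CD8a- gate required TCRβ, of which Vβ5 is a part.

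Over the whole thymus 3265 of 12670 genes tested were called between the genotypes (25.8%), 1639 higher in OT-II (12.9%) and 1626 higher in OT-I (12.8%), that is 50.2% of calls higher in OT-II, against 64.8% when scaled by library size alone. The number rests on the replicate block, which leaves 1 residual degree of freedom, so that most of the spread in the test is borrowed across genes. In the antibody fits and in the RNA fits of CD4+CD8a-, single-positive and DN cells, edgeR used 1 common trend of spread with no weight on a gene's own, which allows the very small p-values there. Without the block, with 2 mice of unequal depth in each group, 2 genes were called. All 3265 kept their direction, but with 1 mouse of each genotype in each tube group this was all but fixed in advance. With the wild-type mice in the fit 2812 were called. Leaving out 1 mouse, without the block, left 271 calls without OT-I replicate 1, 589 without OT-I replicate 2, 122 without OT-II replicate 1 and 230 without OT-II replicate 2. The 2 mice of a genotype are separate samples, and the p-values with the block do not include the spread that the tube groups share. In sums over a whole thymus, fewer cells of a type and less RNA per cell cannot be told apart.

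Genes of DP cells before selection were higher in OT-II. Rag1, the recombinase subunit, was at 26.9 and 52.1 CPM in OT-I, 405 and 775 CPM in OT-II and 988 and 1587 CPM in wild-type mice (log2 fold change 3.82 ± 0.12 (SE), adjusted p = 6.83e-16). Rag2 was at 4.58 and 5.68 CPM in OT-I and 57.7 and 68.8 CPM in OT-II mice. Both OT-II mice lay well above both OT-I mice and below both wild-type mice. Of the 8 preselection DP genes listed, 7 were higher in OT-II and 1, the chemokine receptor gene Ccr9, was lower (median log2 fold change 1.89, against -0.00756 over all genes tested). Dntt, which encodes the template-free polymerase of receptor junctions, was at 129.7 and 121 CPM in OT-I and 528 and 432 CPM in OT-II mice (log2 fold change 1.85). Ly6d, a small surface protein gene, rose 27.3-fold, from 29.8 and 14.7 CPM in OT-I to 892 and 411 CPM in OT-II mice, with 820.5 and 422 CPM in wild-type mice. The membrane transporter genes Slc7a11 (0.716 and 0.144 CPM in OT-I, 35.5 and 24.8 CPM in OT-II) and Slc5a9 (0.218 and 0.360 CPM in OT-I, 52.3 and 47.3 CPM in OT-II) were close to absent in OT-I mice.

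Genes that follow a TCR signal and genes of maturation were higher in OT-I. All 15 of the TCR response genes tested were higher in OT-I (median log2 fold change -0.90), with Egr1 at 65.3 and 92.9 CPM in OT-I and 32.5 and 45.8 CPM in OT-II mice (log2 fold change -1.101 ± 0.099 (SE), adjusted p = 2.18e-08). Nr4a1 was at 24.2 and 36.4 CPM in OT-I and 12.1 and 22.1 CPM in OT-II (log2 fold change -0.96 ± 0.12 (SE), adjusted p = 1.60e-06). Of the 10 maturation and egress genes, 8 were higher in OT-I and 1 in OT-II (median log2 fold change -1.29). The transcription factor gene Klf2 was at 403 and 190.4 CPM in OT-I and 126 and 58.4 CPM in OT-II mice. S1pr1, the sphingosine phosphate receptor that leads cells out of the thymus, was at 75.8 and 182 CPM in OT-I and 25.3 and 49.8 CPM in OT-II. OT-I values exceeded those of OT-II within each replicate pair, and wild-type mice had S1pr1 at 25.6 and 53.4 CPM.

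The lineage genes split. Of the 15 CD8 lineage genes, 9 were higher in OT-I and 1 in OT-II (median log2 fold change -1.65). Itgae, which encodes the integrin chain CD103, was at 52.5 and 70.3 CPM in OT-I and 5.02 and 7.48 CPM in OT-II mice (log2 fold change -3.42 ± 0.12 (SE), adjusted p = 1.24e-14). Runx3 was at 184 and 304 CPM in OT-I and 55.7 and 70.2 CPM in OT-II (log2 fold change -1.995 ± 0.11). The cytotoxic granule gene Nkg7 was at 266 and 113 CPM in OT-I and 47.7 and 33.4 CPM in OT-II mice. Cd8a itself, at 451 and 266 CPM in OT-I and 529.9 and 303 CPM in OT-II mice, overlapped and was not called (adjusted p = 0.433), and wild-type mice were above both. Of the 8 CD4 lineage genes, 4 were higher in OT-II and 3 in OT-I (median log2 fold change 0.27). Zbtb7b was at 6.60 and 10.4 CPM in OT-I and 17.0 and 19.6 CPM in OT-II mice (log2 fold change 1.08 ± 0.14 (SE), adjusted p = 3.03e-06), whereas Gata3, which acts earlier in the same lineage, was higher in OT-I in each pair (156 and 291 CPM in OT-I, 129 and 177 CPM in OT-II).

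Among the other genes that led the list of those higher in OT-I, Cd163l1, a scavenger receptor gene of γδ T cells, was at 81.9 and 93.5 CPM in OT-I, 11.026 and 11.3 CPM in OT-II and 1.92 and 1.78 CPM in wild-type mice. Cpa3, a carboxypeptidase gene, was at 62.8 and 81.4 CPM in OT-I and 11.975 and 11.9 CPM in OT-II mice. Gimap4, a GTPase gene of maturing T cells whose relatives are similar in sequence, was at 247 and 232 CPM in OT-I and 42.0 and 46.7 CPM in OT-II mice (log2 fold change -2.53). The rest were Pdlim4, Adam19, Gm14718, Actn2, Cd7, Ctsw and Tdrp, with log2 fold changes from -3.57 for Pdlim4 to -2.29 for Tdrp. In all of them both OT-I mice lay above both OT-II mice, which their choice by fold change and pair direction nearly assured. Of the 6 γδ genes tested, 4 were higher in OT-I and 1 in OT-II (median log2 fold change -1.02). Of the 7 double negative genes tested, 5 were higher in OT-II and 1 in OT-I (median log2 fold change 1.42), with Ptcra, the pre-TCR α chain gene, at 9.90 and 13.6 CPM in OT-I and 189.7 and 116 CPM in OT-II mice. Il2ra, which encodes CD25, was at 12.3 and 28.5 CPM in OT-I and 110.0 and 202 CPM in OT-II.

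Of the 8 chemokine receptor genes, 6 were higher in OT-I and 1 in OT-II (median log2 fold change -1.16), and of 11 genes of agonist and negative selection, 5 were higher in OT-I and 4 in OT-II. Of the 12 genes of TCR signal machinery, 5 were higher in OT-I and 2 in OT-II, of the 12 cytokine and STAT5 genes 5 and 3, of the 10 calcineurin and NFAT genes 4 and 0, and of the 7 TCR complex genes 1 and 1. Of 20 cell cycle genes 1 was higher in each genotype, of 11 interferon response genes 1 was higher in OT-I and 2 in OT-II, of the 5 innate-like T genes tested 1 and 2, and of the 4 thymic epithelium genes tested 0 and 1. Over all genes tested 12.9% were higher in OT-II and 12.8% in OT-I, so that the smaller counts here are a description only.

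RNA of cells other than thymocytes moved with the genotype. Neutrophil granule genes led those higher in OT-II, and 6 of them (S100a8, S100a9, Ngp, Camp, Lcn2 and Ltf) were taken as a list after their values were seen. Their summed level was 1.21 and 0.0719 CPM in the OT-I, 3007 and 1371 CPM in the OT-II and 272 and 705 CPM in the wild-type mice. S100a8 was at 0.436 and 0.0719 CPM in OT-I and 949 and 562 CPM in OT-II mice. Ngp, Camp, Lcn2 and Ltf had no UMI in either OT-I mouse, and against 3 UMIs over both OT-I mice Ngp was at least 4255-fold, Camp 4050.1-fold, Lcn2 1809.9-fold and Ltf 989.6-fold higher in the OT-II mice together. OT-II replicate 1 was the higher in all 4, with Ngp at 317 and 132 CPM, Camp at 319.96 and 58.9 CPM, Lcn2 at 139 and 40.3 CPM and Ltf at 69.2 and 47.2 CPM in the 2 OT-II mice. Without replicate 1 the bounds were 2018-fold, 904-fold, 618-fold and 725-fold in the same order. Chil3, a macrophage and neutrophil gene, was at 0.343 and 0.791 CPM in OT-I and 75.2 and 25.4 CPM in OT-II mice. Cells with at least 1% of their UMIs from the 6 granule genes numbered 1 and 0 in OT-I, 30 and 7 in OT-II and 11 and 12 in wild-type mice, and most of those in OT-II mice (26 and 6) lay in the DN gate.

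The 5 erythroid genes were all higher in OT-II, at a summed 1445 and 88.5 CPM in OT-I and 7824 and 956 CPM in OT-II mice, so that the genotypes overlapped. Hbb-bs reversed without OT-II replicate 1 (log2 fold change -0.088 in place of 2.83). Of the 10 myeloid and dendritic genes 3 were higher in OT-II and 2 in OT-I, with summed levels of 934 and 652 CPM in OT-I and 799 and 740 CPM in OT-II mice. Of the 7 B cell genes 2 were higher in OT-II and 2 in OT-I, and their sum, 93.4 and 34.6 CPM in OT-I and 939.8 and 448 CPM in OT-II mice, was mostly Ly6d in OT-II but not in OT-I mice (29.8 and 14.7 CPM in OT-I, 892 and 411 CPM in OT-II), while Pax5, the B lineage factor gene, stayed at or under 1.495 CPM in all 4 mice. With cells rich in granule or globin RNA left out, an alternative chosen after seeing the data, 3262 genes were called. The part of these cells' RNA in the other differences was not tested beyond that.

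**Figure D3:**
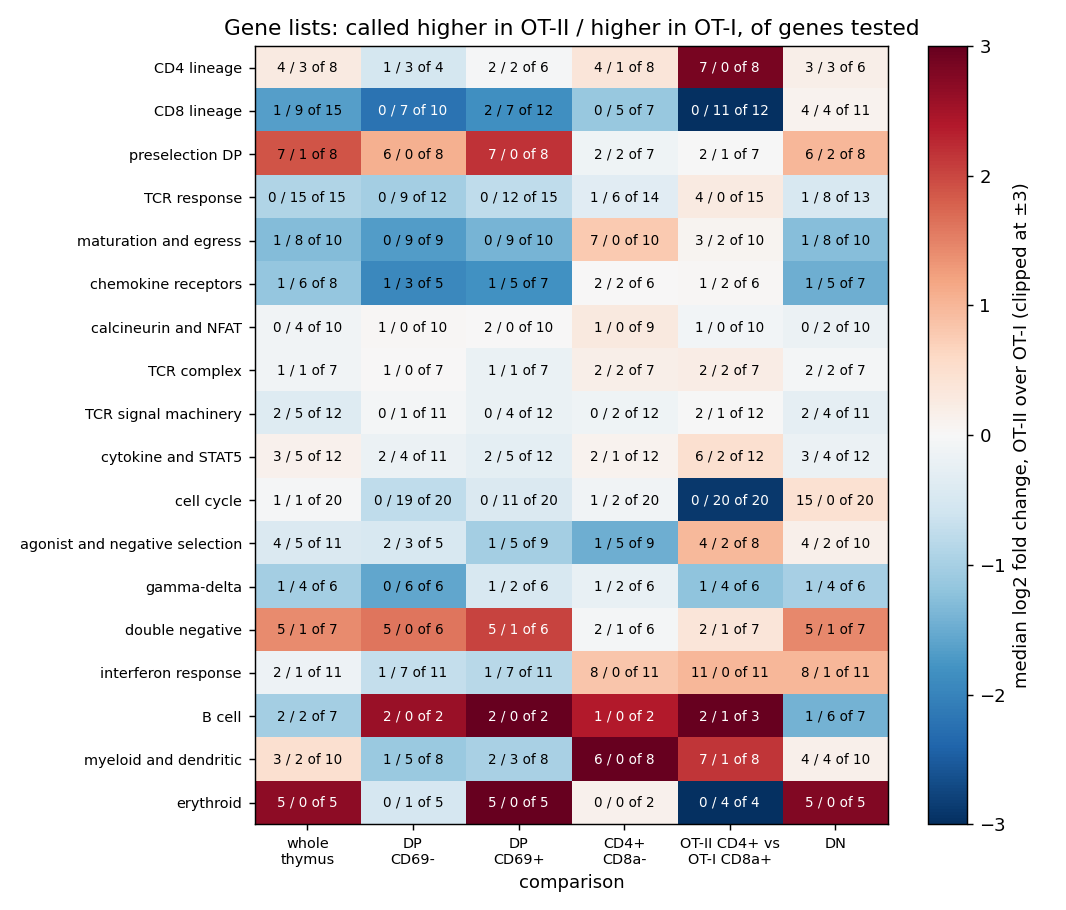
Number of genes called higher in OT-II / higher in OT-I, of those tested, for 18 gene lists (rows) in 6 comparisons (columns); color gives the median log2 fold change of OT-II over OT-I, clipped at 3 either way, and the lists hold Cd4, Cd8a, Cd8b1 and Cd69, whose proteins or partner set gates. TCR response genes read 0 / 15 of 15 in the whole thymus, cell cycle genes 0 / 20 of 20 in OT-II CD4+CD8a- against OT-I CD4-CD8a+ cells, and preselection DP genes 7 / 0 of 8 in CD69+ DP cells.

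On the surface, 11 of the 111 antibodies differed over the whole thymus (9.91%), 7 higher in OT-II (6.31%) and 4 higher in OT-I (3.6%). CD25, the α chain of the interleukin-2 receptor, was at 11.973 and 16.4 per 10000 antibody UMIs in OT-I, 132 and 166 in OT-II and 17.6 and 31.5 in wild-type mice (log2 fold change 3.33 ± 0.37 (SE), adjusted p = 9.36e-13). Neuropilin-1 (CD304) was at 9.08 and 8.80 in OT-I and 55.3 and 31.7 in OT-II mice (log2 fold change 2.16 ± 0.39 (SE), adjusted p = 5.97e-06). Its RNA, Nrp1, was at 9.44 and 14.2 CPM in OT-I and 107 and 111 CPM in OT-II. Both proteins stood above the wild-type mice in OT-II and below them in OT-I. CD29, Sca-1 (Ly-6A-E), CD24, CD4 and Ly-6C were also higher in OT-II, with log2 fold changes from 1.02 for CD4 to 1.52 for CD29.

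The antibodies higher in OT-I included CD103, integrin β7 and ICOS. CD103 was at 48.1 and 46.0 per 10000 in OT-I and 9.74 and 11.9 in OT-II mice (log2 fold change -2.196 ± 0.39 (SE), adjusted p = 4.79e-06). Its partner integrin β7 was at 114 and 116 in OT-I and 21.6 and 33.4 in OT-II (log2 fold change -2.16 ± 0.36 (SE), adjusted p = 1.50e-06). CD5, which follows the strength of TCR signals, was at 1345 and 1322 in OT-I and 843 and 897 in OT-II mice without overlap, but did not pass (log2 fold change -0.68 ± 0.25, adjusted p = 0.0629). Replicate deviations of the antibodies did not go together between genotypes (correlation -0.036), and 16 antibodies were called without the block. The count also moved with the scaling, with 28 antibodies called by library size, and the share of calls higher in OT-II fell from 63.6% to 53.8% with DESeq2, to 50% with the antibody filters of the study added and to 41.7% with wild-type mice in the fit, where the median over all antibodies shifted by -0.22.

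In CD69- DP cells, gated at the same thresholds in both genotypes, the OT-I sums had lower Rag1 and higher levels of genes that come late in selection. The gate held 328 and 185 cells in OT-I and 2150 and 968 cells in OT-II mice. Their median RNA UMIs per cell were 6620.5 and 3085 in OT-I and 3707.5 and 1914.5 in OT-II mice. In these sums, another mix of stages and a change within cells cannot be told apart. Of 9709 genes tested 1995 were called (20.5%), 855 higher in OT-II (8.81%) and 1140 higher in OT-I (11.7%). Of these calls 42.9% were higher in OT-II, against 32.4% of those by DESeq2. Of the 8 preselection DP genes 6 were higher in OT-II and 0 in OT-I (median log2 fold change 1.06), with Rag1 at 182 and 329.7 CPM in OT-I and 679 and 1346 CPM in OT-II mice (log2 fold change 1.89 ± 0.16 (SE), adjusted p = 4.42e-14). All 9 of the maturation and egress genes tested were higher in OT-I (median log2 fold change -1.67). S1pr1 was at 42.4 and 102 CPM in OT-I and 1.11 and 4.58 CPM in OT-II mice, 31.3-fold apart, and Klf2 at 193 and 99.8 CPM in OT-I and 19.997 and 5.34 CPM in OT-II. Of the 11 TCR response genes tested apart from Cd69, whose protein set the gate, 8 were higher in OT-I and 0 in OT-II (median log2 fold change -1.12), with Egr1 at 82.7 and 131 CPM in OT-I and 22.9 and 31.7 CPM in OT-II mice (log2 fold change -2.01 ± 0.15 (SE), adjusted p = 3.53e-15).

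Gimap4 was at 164 and 164 CPM in OT-I and 5.25 and 3.05 CPM in OT-II mice, 37.6-fold apart. Smad7, an inhibitor of TGFβ signals, was at 38.5 and 20.2 CPM in OT-I and 2.30 and 2.67 CPM in OT-II. Izumo1r, the folate receptor 4 gene, was at 44.5 and 27.8 CPM in OT-I and 2.58 and 2.67 CPM in OT-II. Of the 8 CD8 lineage genes tested apart from Cd8a and Cd8b1, 7 were higher in OT-I and 0 in OT-II, with Runx3 at 70.7 and 136 CPM in OT-I and 27.5 and 27.1 CPM in OT-II mice (log2 fold change -1.81 ± 0.16). Il2ra went the other way (6.01 and 15.2 CPM in OT-I, 77.2 and 122 CPM in OT-II), and so did the CD25 antibody, at 6.53 and 11.9 per 10000 in OT-I, 86.4 and 113 in OT-II and 6.12 and 8.78 in wild-type mice. CD5 antibody stood at 1295 and 1199 in OT-I, 552 and 505 in OT-II and 309 and 344 in wild-type mice. OT-I cells without CD69 thus carried the most CD5 of the 3 groups. Of 20 cell cycle genes 19 were higher in OT-I (median log2 fold change -0.76), with Mki67 at 562 and 724 CPM in OT-I and 426 and 429 CPM in OT-II mice, and all 6 γδ genes tested were higher in OT-I. Of the 8 myeloid and dendritic genes tested in the same gate 5 were also higher in OT-I and 1 in OT-II (median log2 fold change -1.12), with summed levels of 491 and 378 CPM in OT-I and 221 and 160.2 CPM in OT-II mice, while the 6 granule genes summed to 0 and 0 CPM in OT-I and 161 and 39.3 CPM in OT-II. Without cells rich in granule or globin RNA 1976 genes were called, and the part of this RNA in the differences was not tested otherwise.

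In CD69+ DP cells 2085 of 10307 genes were called (20.2%), 968 higher in OT-II (9.39%) and 1117 higher in OT-I (10.8%). Of the 8 preselection DP genes 7 were higher in OT-II and 0 in OT-I (median log2 fold change 2.17). Rag1 was at 26.7 and 101 CPM in OT-I and 405 and 781 CPM in OT-II mice (log2 fold change 3.28 ± 0.17 (SE), adjusted p = 7.00e-17). Rag2 was at 3.79 and 9.41 CPM in OT-I and 59.1 and 65.2 CPM in OT-II. OT-II cells with CD69 thus still held more Rag1 than OT-I cells without it. Of the 14 TCR response genes apart from Cd69, 11 were higher in OT-I and 0 in OT-II, and of 10 maturation and egress genes 9 and 0. Egr1 was at 113 and 138 CPM in OT-I and 72.5 and 94.8 CPM in OT-II mice (log2 fold change -0.76 ± 0.13 (SE), adjusted p = 5.51e-05). S1pr1 was at 49.5 and 179 CPM in OT-I and 5.95 and 11.8 CPM in OT-II.

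In CD69+ DP cells Runx3 was higher in OT-I, at 179.8 and 305 CPM in OT-I and 55.8 and 60.7 CPM in OT-II mice (log2 fold change -2.103 ± 0.15 (SE), adjusted p = 1.62e-13). So were Nkg7 (139 and 64.6 CPM in OT-I, 12.1 and 10.4 CPM in OT-II), Tesc (205 and 56.5 CPM in OT-I and 24.4 and 16.3 CPM in OT-II) and the myosin gene Myo6 (35.5 and 87.8 CPM in OT-I and 3.76 and 6.66 CPM in OT-II). The DP gates used CD4, CD8a and CD69 only. The paper describes a later DP stage with CD69 and high TCRβ, through which cells of the CD8 but not the CD4 lineage pass. Its share in this gate was not tested. Zbtb7b was at 9.94 and 16.1 CPM in OT-I and 18.8 and 29.6 CPM in OT-II mice (log2 fold change 0.74 ± 0.22, adjusted p = 0.0118). That direction depended on the gate, since with a threshold per mouse Zbtb7b was higher in OT-I (log2 fold change -0.88, adjusted p = 0.0427). The call was also lost with DESeq2 (adjusted p = 0.464), without the block (0.81), with lowered thresholds (0.282) and without any 1 of the mice (0.323 to 0.9998), at log2 fold changes from 0.29 to 1.12. All 5 erythroid genes tested were higher in OT-II in these cells, where 0 and 1 cells in OT-I and 4 and 1 in OT-II mice had at least 1% of UMIs from haemoglobin genes.

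The size of the genotype difference was compared between the 2 DP gates with each mouse as its own block. It differed for 181 of 10142 genes (1.78%), of which 111 had a higher OT-II to OT-I ratio in CD69+ than in CD69- cells (1.09%, or 61.3% of the calls, against 43.8% of those by DESeq2) and 70 a lower one (0.69%). Among the 8 preselection DP genes 6 were called in that direction and 0 in the other (median difference 1.13 on the log2 scale), and among the 14 TCR response genes apart from Cd69, 6 and 0 (median 0.38). Of the 5 erythroid genes 3 were called in the same direction (median 4.105), and 198 genes were called without cells rich in granule or globin RNA. Rag1 went from a log2 fold change of 1.89 in CD69- to 3.28 in CD69+ cells, a difference of 1.38 ± 0.18 (adjusted p = 5.06e-05). Aqp11, a water channel gene of DP cells, was at 169 and 168 CPM in OT-I and 456 and 366 CPM in OT-II cells without CD69, and at 36.4 and 38.3 CPM in OT-I and 282 and 214 CPM in OT-II in those with it (difference 1.37 ± 0.13, adjusted p = 6.97e-07). The log2 difference between the CD69- and CD69+ gates was thus larger in OT-I for both genes. For Egr1 it was larger in OT-II, from 22.9 and 31.7 to 72.5 and 94.8 CPM against 82.7 and 131 to 113 and 138 CPM in OT-I (difference 1.25 ± 0.17, adjusted p = 9.03e-05). These are differences between gates, and the mix of stages within each gate was not tested.

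**Figure D4:**
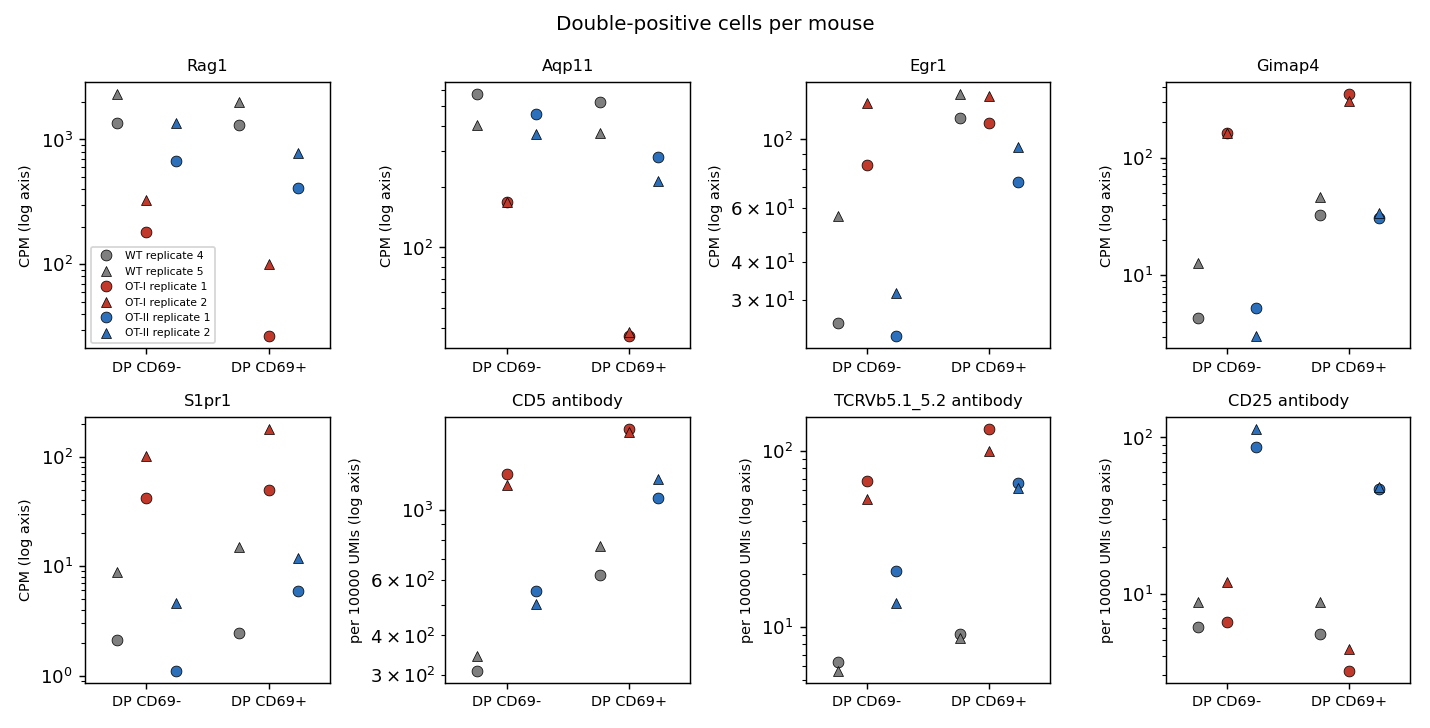
Levels per mouse in CD69- and CD69+ DP cells (log axes) of 5 genes in CPM and of 3 antibodies per 10000 antibody UMIs, 1 point per mouse. Rag1 and Aqp11 are lowest in OT-I cells with CD69, and CD5 antibody is at 1295 and 1199 in OT-I cells without CD69, above the OT-II and wild-type cells of that gate.

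CD4+CD8a- cells, present in both genotypes, differed in fewer genes, 829 of 8938 (9.28%), 420 higher in OT-II (4.7%) and 409 higher in OT-I (4.58%). Zbtb7b was at 39.6 and 60.8 CPM in OT-I and 91.2 and 95.7 CPM in OT-II mice (log2 fold change 1.04 ± 0.16 (SE), adjusted p = 5.47e-09). Runx3 was at 159 and 232 CPM in OT-I and 89.3 and 98.1 CPM in OT-II (log2 fold change -0.94 ± 0.14 (SE), adjusted p = 1.19e-09). The OT-I sums of this gate thus held RNA of both factors, as the OT-II sums did, with Zbtb7b below and Runx3 above OT-II, without overlap. Sums over a gate do not show whether single cells held both RNAs. Wild-type mice were at 81.3 and 100.1 CPM for Zbtb7b and 50.6 and 63.0 CPM for Runx3. Without Cd4, Cd8a and Cd8b1, whose proteins or partner set the gate, 4 of the 7 CD4 lineage genes tested were higher in OT-II and 1 in OT-I, and 3 of the 5 CD8 lineage genes tested were higher in OT-I and 0 in OT-II. Cd8a itself was at 80.7 and 48.4 CPM in OT-I and 9.89 and 11.4 CPM in OT-II mice.

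Several genes known to follow receptor signals were higher in the OT-I cells of this gate. Bcl2l11, which encodes the death factor BIM, was at 166 and 234 CPM in OT-I and 24.1 and 38.4 CPM in OT-II mice (log2 fold change -2.65 ± 0.16 (SE), adjusted p = 1.35e-58). Gadd45b, a stress response gene, was at 66.5 and 19.5 CPM in OT-I and 1.69 and 3.27 CPM in OT-II. The nuclear receptor gene Nr4a3 was at 32.0 and 35.9 CPM in OT-I and 1.93 and 4.91 CPM in OT-II, and its relative Nr4a1 at 97.4 and 119 CPM in OT-I and 24.8 and 63.0 CPM in OT-II. Bcl2l11 and Nr4a3 were named for their large fold changes, and Gadd45b and Nr4a1 come from the lists counted next. All 4 genes were lower in both OT-II mice than in both OT-I mice, which this choice favoured. Of the 9 agonist and negative selection genes tested 5 were higher in OT-I, among them Ikzf2 (299 and 348 CPM in OT-I, 121 and 94.1 CPM in OT-II), and 1 was higher in OT-II (median log2 fold change -1.47), and of the 14 TCR response genes tested 6 were higher in OT-I and 1 in OT-II.

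Maturation and interferon genes were higher in the OT-II cells. Of 10 maturation and egress genes 7 were higher in OT-II and 0 in OT-I (median log2 fold change 0.79). Klf2 was at 286 and 139.6 CPM in OT-I and 637 and 281 CPM in OT-II mice and S1pr1 at 83.6 and 192 CPM in OT-I and 156 and 295 CPM in OT-II, higher in OT-II in each pair although the groups overlapped. Of 11 interferon response genes 8 were higher in OT-II and 0 in OT-I (median log2 fold change 0.84). In DP cells most of them were higher in OT-I, with 7 higher in OT-I and 1 in OT-II in the CD69- gate (median -0.72) and 7 and 1 in the CD69+ gate (median -0.84). Ly6a, which encodes Sca-1, was at 11.994 and 9.36 CPM in OT-I and 88.1 and 118 CPM in OT-II mice. Iigp1, an interferon-induced GTPase gene, was at 1.82 and 5.46 CPM in OT-I and 29.9 and 76.9 CPM in OT-II.

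RNA of myeloid cells was counted in the same gate. S100a8 stood at 0 and 0 CPM in OT-I and 153 and 34.3 CPM in OT-II mice, Lyz2 at 0.363 and 0.780 CPM in OT-I and 136 and 67.9 CPM in OT-II, and 6 of the 8 myeloid and dendritic genes tested were higher in OT-II and 0 in OT-I. Cells rich in granule RNA numbered 0 and 0 in OT-I and 1 and 1 in OT-II mice in this gate, and without cells rich in granule or globin RNA 828 genes were called. Without the replicate block 0 genes were called in this gate by edgeR, with 395 genes at an unadjusted p under 0.05, and DESeq2 with the block called 134.

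The cells of each genotype in the lineage of its receptor, CD4+CD8a- in OT-II and CD4-CD8a+ in OT-I, differed in 3115 of 10040 genes (31%), 1367 higher in OT-II (13.6%) and 1748 higher in OT-I (17.4%). The OT-II samples are those of the CD4+CD8a- comparison. Of these calls 43.9% were higher in OT-II, against 33.3% of those by DESeq2. The gate used CD4, CD8a and TCRβ, so that Cd4, Cd8a and Cd8b1 are no finding. Apart from these, 6 of the 7 CD4 lineage genes were higher in OT-II cells and 0 in OT-I cells (median log2 fold change 1.905), and of the 10 CD8 lineage genes tested 0 and 9 (median -2.91). Zbtb7b was nearly absent from OT-I CD4-CD8a+ cells, at 0.323 and 0.964 CPM, and at 91.2 and 95.7 CPM in the OT-II cells (log2 fold change 7.37 ± 0.28). Cd40lg, the CD4 helper ligand, was at 2.48 and 7.47 CPM in OT-I and 27.7 and 120.2 CPM in OT-II cells. Runx3 differed less, at 223 and 451 CPM in OT-I and 89.3 and 98.1 CPM in OT-II (log2 fold change -1.702 ± 0.13), than Itgae, at 101 and 122 CPM in OT-I and 2.65 and 3.27 CPM in OT-II, and Nkg7, at 498 and 201 CPM in OT-I and 35.9 and 8.9962 CPM in OT-II.

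All 20 cell cycle genes were higher in OT-I CD4-CD8a+ cells (median log2 fold change -2.88). Mki67 was at 334 and 339 CPM in OT-I and 56.5 and 22.1 CPM in OT-II cells, and Racgap1, needed for the last step of division, at 101 and 137 CPM in OT-I and 10.4 and 3.27 CPM in OT-II. Wild-type CD4-CD8a+ cells stood at 211 and 438 CPM of Mki67 and wild-type CD4+CD8a- cells at 90.8 and 225 CPM. Both OT-I mice lay within the range of the wild-type CD4-CD8a+ cells, and both OT-II mice below the wild-type CD4+CD8a- cells. All 11 interferon response genes were higher in the OT-II cells (median log2 fold change 1.00), with Ifitm3 at 1.18 and 0.482 CPM in OT-I and 27.7 and 38.4 CPM in OT-II cells. Actn2, an actinin gene, was at 73.7 and 56.1 CPM in OT-I and 2.17 and 6.54 CPM in OT-II cells and Adgrg5, an adhesion receptor gene, at 36.5 and 42.2 CPM in OT-I and 0.482 and 0 CPM in OT-II. Myeloid RNA also moved with this comparison, in which S100a9 (0 and 0 CPM in OT-I, 233 and 28.6 CPM in OT-II) and S100a8 led the genes higher in OT-II. Of the 8 myeloid and dendritic genes tested 7 were higher in OT-II and 1 in OT-I (median log2 fold change 2.14), with summed levels of 213 and 176 CPM in OT-I and 665 and 202 CPM in OT-II cells. All 4 erythroid genes tested were higher in OT-I (median log2 fold change -3.49), at a summed 649.7 and 11.8 CPM in OT-I and 36.2 and 39.3 CPM in OT-II cells, so that the genotypes overlapped. Without cells rich in granule or globin RNA 3111 genes were called, and without the block 143.

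**Figure D5:**
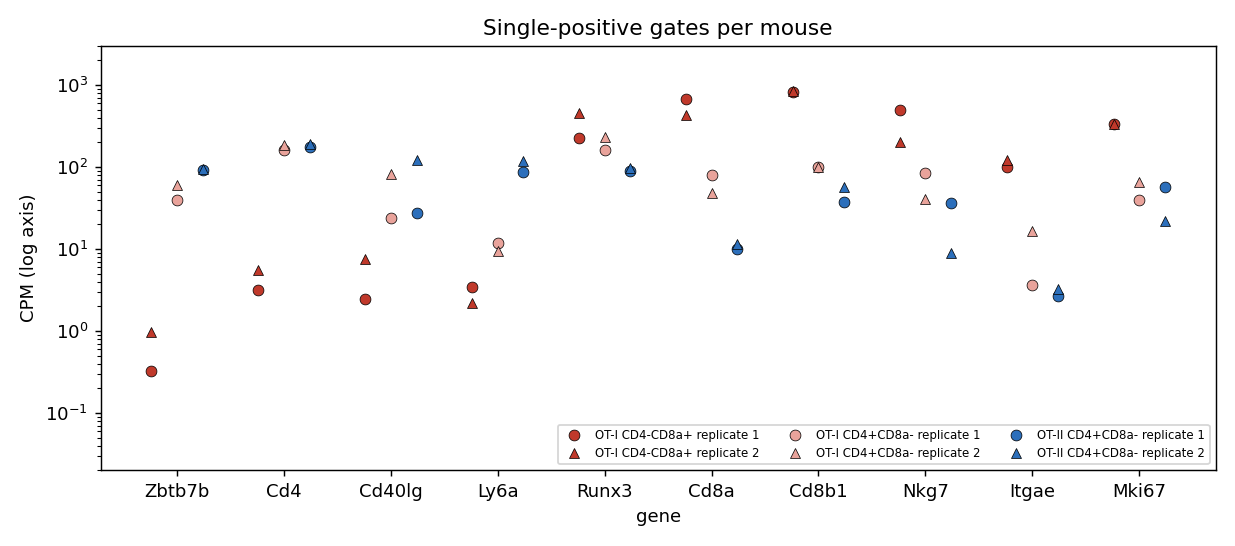
CPM (log axis) of 10 genes in OT-I CD4-CD8a+, OT-I CD4+CD8a- and OT-II CD4+CD8a- cells, 1 point per mouse (circles replicate 1, triangles replicate 2). Zbtb7b is under 1 CPM in OT-I CD4-CD8a+ cells, 39.6 and 60.8 in OT-I CD4+CD8a- cells and 91.2 and 95.7 in OT-II CD4+CD8a- cells, and Runx3 is lowest in the OT-II cells.

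On the surface of the same cells 12 of 111 antibodies differed (10.8%), 4 higher in OT-II (3.6%) and 8 higher in OT-I (7.21%), of which CD4, CD8a and CD8b mirror the gate. CD103 was at 102 and 85.9 per 10000 antibody UMIs in OT-I and 7.99 and 7.65 in OT-II cells (log2 fold change -3.78 ± 0.82 (SE), adjusted p = 2.92e-04), and integrin β7 at 215 and 186 in OT-I and 25.4 and 27.9 in OT-II. Both OT-I mice were several times above both OT-II mice in the 2 chains of this epithelial adhesion receptor. The transferrin receptor CD71 (39.8 and 30.3 in OT-I, 13.3 and 10.979 in OT-II), the adhesion ligand CD54 (36.7 and 47.3 in OT-I and 11.9 and 15.9 in OT-II) and CD122, the β chain of the interleukin-2 and interleukin-15 receptors (3.74 and 4.65 in OT-I and 2.28 and 2.42 in OT-II), were also higher in OT-I cells. An antibody to the ovalbumin peptide SIINFEKL on H-2Kb was counted at 3.88 and 5.40 in OT-I and 3.57 and 2.86 in OT-II cells (adjusted p = 0.0106). This is a low level, as is that of CD122: the antibody to XCR1, which was not called, was at 2.30 and 5.41 in OT-I and 3.54 and 3.48 in OT-II. The scaling factors of the OT-I sums were 0.671 and 1.296, and whether the SIINFEKL or CD122 counts are background was not tested. Sca-1 (13.1 and 17.8 in OT-I, 113 and 199.9 in OT-II), Ly-6C (3.95 and 3.78 in OT-I and 13.2 and 17.4 in OT-II) and CD25 (3.55 and 2.72 in OT-I and 13.6 and 7.49 in OT-II) were higher in OT-II cells. Without either OT-II mouse 0 antibodies were called by edgeR (9 without replicate 1 and 8 without replicate 2 at an unadjusted p under 0.05), while DESeq2 on all 4 mice called 13.

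The CD4-CD8a- (DN) gate, compared after the data had been seen, held 571 and 641 cells in OT-I and 602 and 421 in OT-II mice. Of 10560 genes 3023 were called (28.6%), 1549 higher in OT-II (14.7%) and 1474 higher in OT-I (14%). Genes of early thymocytes were lower in the OT-I cells of this gate. Rag1 was at 2.28 and 11.6 CPM in OT-I and 246 and 503 CPM in OT-II mice (65.2-fold), Ptcra at 7.77 and 9.19 CPM in OT-I and 268 and 143 CPM in OT-II, and Notch1, the receptor that commits cells to the T lineage, at 112 and 167 CPM in OT-I and 278 and 432 CPM in OT-II. Of the 7 double negative genes tested 5 were higher in OT-II and 1 in OT-I (median log2 fold change 1.44), of the 8 preselection DP genes 6 and 2, and of the 20 cell cycle genes 15 and 0 (median 0.45).

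DN cells of OT-I mice bore Vβ5. The Vβ5 antibody was at 260.1 and 199.8 per 10000 in OT-I and 18.3 and 14.7 in OT-II mice (log2 fold change -3.86 ± 0.33 (SE), adjusted p = 2.79e-19), against 6.05 and 6.71 in wild-type mice. As a share of antibody UMIs, Vβ5 was higher in OT-I DN cells than in the OT-I cells of the 4 other gates. In those gates CD4 or CD8 antibodies take up part of the total, and Vβ5 per cell was not compared. The DN gate did not use TCRβ. CD25 was at 60.0 and 67.9 in OT-I, 614 and 642 in OT-II and 508 and 602 in wild-type mice, and CD5 at 551 and 554 in OT-I and 260.4 and 253 in OT-II mice. CD103 (66.5 and 68.3 in OT-I and 19.5 and 18.5 in OT-II) and integrin β7 (222 and 217 in OT-I and 56.1 and 59.3 in OT-II) were higher in OT-I DN cells. In all, 16 of 111 antibodies differed (14.4%), 9 higher in OT-II (8.11%) and 7 higher in OT-I (6.31%), that is 56.2% of calls higher in OT-II against 66.7% by DESeq2.

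In RNA, of the 10 maturation and egress genes 8 were higher in OT-I and 1 in OT-II (median log2 fold change -1.28), and of the 6 γδ genes tested 4 and 1 (median -1.0003). The antibody to the γδ receptor was called the other way, at 3.13 and 6.76 per 10000 in OT-I, 22.3 and 19.2 in OT-II and 20.07 and 18.9 in wild-type DN cells (adjusted p = 3.30e-05), and so was that to Vγ2, at 2.54 and 4.83 in OT-I and 20.8 and 18.0 in OT-II (adjusted p = 4.41e-06). Etv5, a transcription factor gene, was at 359.6 and 625 CPM in OT-I and 80.2 and 99.4 CPM in OT-II mice, Igfbp4, an insulin-like growth factor binding protein gene, at 679 and 503 CPM in OT-I and 101 and 51.8 CPM in OT-II, and Cd163l1 at 282 and 245 CPM in OT-I and 32.1 and 26.5 CPM in OT-II. Cpa3 (322 and 319 CPM in OT-I and 44.5 and 30.0 CPM in OT-II), Itgae (65.2 and 94.3 CPM in OT-I and 12.005 and 11.8 CPM in OT-II) and Pparg (29.6 and 26.9 CPM in OT-I and 4.04 and 3.22 CPM in OT-II) were also higher in OT-I. Xcl1, a chemokine gene, had no UMI in the OT-I DN cells and stood at 27.3 and 25.7 CPM in those of OT-II mice. RNA of other cell types moved with the genotype in this gate too. Of the 7 B cell genes 6 were higher in OT-I, and 1, Ly6d, was higher in OT-II (median log2 fold change -1.42). Without Ly6d their summed level was 247 and 50.04 CPM in OT-I, 74.1 and 58.6 CPM in OT-II and 238 and 157 CPM in wild-type mice, so that the genotypes overlapped. All 5 erythroid genes were higher in OT-II, at a summed 2601 and 15.7 CPM in OT-I and 9770.0 and 1495 CPM in OT-II mice, which also overlapped. Of the 11 interferon response genes 8 were higher in OT-II and 1 in OT-I (median 0.99). The granule genes led the list of genes higher in OT-II in this gate, with summed levels of 7.01 and 0 CPM in OT-I, 12276 and 4478 CPM in OT-II and 3727 and 4149 CPM in wild-type mice. With cells rich in granule or globin RNA left out, 3068 genes were called, and without the replicate block 2.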

How the data were processed

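RNA and surface antibodies were counted by CITE-seq (10x Genomics 3′ v3). The values are raw UMI counts per gene or antibody and cell that the authors deposited as 1 matrix per lane. The submitters' processing notes name Cell Ranger 3.1.0 and the builds mm10 and GRCm38. From these counts, cells with at most 15% mitochondrial UMIs and at least 200 genes were kept, and the RNA UMIs of an OT lane before this filter ranged from 9893333 to 37265286. Counts were summed per mouse, or per mouse and gate, and tested with edgeR 4.0.16 (quasi-likelihood test, TMM scaling, filterByExpr, replicate number as block, Benjamini-Hochberg adjustment at 0.05), with DESeq2 1.42.0 as an alternative, in R 4.3.3. Gates used antibody UMIs per 10000, in cells with 1000 to 10000 antibody UMIs and at least 70 antibodies and with called doublets (0.8% per 1000 barcodes) left out. A threshold per marker was set by Otsu's method over equal numbers of cells per mouse, at 85.3 for CD4, 105.5 for CD8a, 26.7 for TCRβ and 10.5 for CD69. Sums needed at least 50 cells per mouse.

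Same-numbered mice ran in neighbouring tubes, and their RNA deviations from the genotype means correlated at 0.73 over the whole thymus and at 0.63 to 0.70 in gates, whereas those of the antibodies correlated at -0.036, 0.024 and -0.27. The named genes were the 12 (in gates, 10) called genes per direction with the largest log2 fold change, at least 20 CPM in both mice of the higher genotype and the same direction in both pairs, with receptor segments apart. Members of the gene lists could be named as well. Members and lists were chosen with earlier results of these data known. The comparison of DN cells and the alternative without cells rich in granule or globin RNA were added after seeing the data. Alternatives were another test, scaling, filter, block, set of cells, depth or threshold, and leaving out each mouse. Intervals cover counting error only. Segment sequences are from the RefSeq GRCm38 genome at GENCODE vM21 coordinates. Some features were counted in the lists but are not reported here by name.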

Additional observations from a re-analysis of the deposited data

Results flagged for a closer look

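The genotype difference itself differed between CD69+ and CD69- DP cells for 181 genes by the interaction term of the edgeR fit, and 9 of the genes examined by name in these gates were of this kind. The log2 fold change of OT-II over OT-I was higher in CD69+ than in CD69- cells by 1.37 for Aqp11, 1.38 for Rag1, 1.79 for Rag2, 1.85 for Ly6d, 1.63 for Gimap4, 1.46 for Izumo1r, 1.25 for Egr1 and 0.81 for Klf2. For Myo6 it was lower in CD69+ cells (difference -2.23). Without the mouse block 0 genes were called by edgeR, with 106 at an unadjusted p under 0.05, and DESeq2 with the block called 73.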

How the results depend on the processing

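The replicate block decided the number of RNA calls. Without it, so that the difference between tube groups entered the spread, edgeR called 2 genes in the whole thymus, 15 in CD69- DP cells, 0 in CD69+ DP cells (863 at an unadjusted p under 0.05), 0 for the difference between DP gates (106), 0 in CD4+CD8a- cells (395), 143 between the single-positive cells and 2 in DN cells, and antibody calls stayed within 1.5 times. DESeq2 with the block called 1644, 521, 636, 73, 134, 913 and 944 genes in the same order, and 26 whole-thymus antibodies. Leaving out 1 mouse, with fewer samples and no block, gave 122 to 589 calls in the whole thymus, 103 to 194 in CD69- DP, 98 to 336 in CD69+ DP and 49 to 115 in CD4+CD8a- cells, 294 to 533 between the single-positive cells and 115 to 386 in DN cells, and 8 to 49, 0 to 28 and 4 to 32 antibodies in the whole thymus, the single-positive and the DN cells. The antibody count of the whole thymus moved to 28 with library size scaling, 24 with wild-type mice in the fit and 4 with the antibody filters added. The difference between DP gates was called for 329 genes with a threshold per mouse and 328 with thresholds lowered by 0.5 log2. Beside the block and DESeq2 values, the cause was not tested.

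The difference in share, OT-II minus OT-I in percentage points, was 10.96, 37.4 and 20.9 for CD69- DP cells with a threshold per mouse, raised and lowered thresholds. For CD69+ DP cells it reversed to 23.4 per mouse and 2.98 lowered. For CD4+CD8a- cells it was 0.468 per mouse, -0.43 raised and 5.66 lowered, and for CD4-CD8a+ cells -30.1, -28.5 and -25.4, and -28.5 without the TCRβ threshold. Among single genes, Cd8a in the whole thymus reversed without OT-I replicate 2 (log2 fold change -0.23) and without OT-II replicate 1 (-0.29; range over left-out mice -0.29 to 0.57), Hbb-bs without OT-II replicate 1 (-0.088; range -0.088 to 5.88), and Zbtb7b in CD69+ DP cells with a threshold per mouse (-0.88). Of 175 single genes and antibodies, 128 lost their call without the block and 17 with DESeq2. No direction reversed under either, which the balanced design all but fixed in advance for the fits without the block.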
